A study of Mus musculus with 2 samples.

Results

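The genes described here, apart from Psmc3ip, encode the proteasome, the protease that breaks down ubiquitin-tagged proteins, with its activators and dedicated assembly chaperones. Members were taken from the protein-coding part of GENCODE M21 (mm10) as genes whose symbols begin with Psma, Psmb, Psmc, Psmd, Psme or Psmg followed by a digit, without Psmb8, Psmb9 and Psmb10. The rule gave 46 members of 21827 nuclear protein-coding genes, and it used names and no measured value. Psmc3ip, a recombination factor, matched by name only and is kept in the counts of members, also where they are called proteasome genes or promoters. Open chromatin was measured by DNase-seq, in which the nuclease DNase I cuts accessible DNA in nuclei and the cut ends are sequenced. There was 1 group, of 2 libraries of CD8-positive, naive, resting alpha-beta T cells, the resting precursors of cytotoxic T cells. The cells were primary cells of adult male B6CASTF1/J mice aged 2 months, and the labels name no treatment and no engineered allele. The F1 strain name marks a cross, so the cells carry a genome from each of its parental strains, while all files are on mm10. The labels number the libraries biological replicates 2 and 3. Both libraries carry the same donor label with different biosample labels, so the spread between them may be technical. With 1 group, no comparison between conditions was possible, and members are set beside all protein-coding genes as counts and medians without a test.

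The proteasome core is a barrel of stacked rings. The outer rings are built of alpha subunits, which gate the entry pore, and the inner rings of beta subunits, of which Psmb5, Psmb6 and Psmb7 carry the proteolytic sites in most cells. The regulatory particle caps the barrel: its ring of ATPases, encoded by the Psmc genes, unfolds substrates, and its non-ATPase subunits, encoded by most Psmd genes, hold, position and deubiquitinate them. Lymphocytes can replace the standard catalytic subunits by those encoded by Psmb8, Psmb9 and Psmb10 to form the immunoproteasome, which shapes the peptides shown on MHC class I.

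Each protein-coding start site was given a promoter window reaching 1000 bp to both sides. A gene is called open in a library when a peak of the library's stricter list overlapped its promoter by 1 bp or more, and its signal is the authors' value for the strongest such peak. Each library also had a longer, permissive list. The stricter lists held 38223 peaks in replicate 2 and 17061 in replicate 3, and the footprint lists 146244 and 29967 intervals. If the signal was scaled to 1e+06 tags, its smallest step would imply a depth of 1.34e+08 tags for replicate 2 and 2.21e+07 for replicate 3, so that a missing peak in replicate 3 may reflect depth. Of 15 T cell marker genes, 11 were open in replicate 2 and 2 in replicate 3 (Cd8b1 and Cd28). Cd8a had only a permissive peak in replicate 2 (1.18), and Cd2 and Tcf7 had none in any list. No marker gene of CD4 T cells (0 of 3), B cells (0 of 6) or NK cells (0 of 2) was open in either library, while of 5 myeloid markers Cebpa was open in both libraries and Itgam in replicate 2, and of 3 erythroid markers Epor was open in replicate 2. The B cell marker Ebf1 had a permissive peak (0.410) and 4 footprints in replicate 2, and the myeloid marker Lyz2 a permissive peak there (0.328). What part other cells had in the results below was not tested.

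The promoters of 6 members are printed to show which bases were protected from cutting. RefSeq promoter entries (assembly GRCm38.p6, from 250 bases before to 50 after a start site) were at hand for 38 of the 46 members. Psmb5 and Psmb6 are the catalytic genes with an entry, and Psmc4, Psma2, Psmg4 and Psmb3 held the most bases called as footprint in both libraries, with 39, 33, 28 and 26; Psmd12, tied with Psmb3 at 26, is not printed. A footprint is a short stretch of low cutting within open chromatin, as a bound protein can leave. Each sequence runs 5′ to 3′ on the gene's strand. In Psmb5 the capitals mark footprints of replicate 2, since replicate 3 had none there (chr14:54617946-54618245, minus strand).
Psmb5: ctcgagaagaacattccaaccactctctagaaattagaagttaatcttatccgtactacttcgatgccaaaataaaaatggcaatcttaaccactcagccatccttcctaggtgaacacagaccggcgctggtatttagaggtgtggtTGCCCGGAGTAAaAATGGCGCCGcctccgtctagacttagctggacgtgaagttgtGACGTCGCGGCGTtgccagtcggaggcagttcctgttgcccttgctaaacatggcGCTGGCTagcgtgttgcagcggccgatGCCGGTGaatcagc
In the other 5 the capitals mark bases inside a footprint of both libraries. The intervals are chr11:70525107-70525406 (plus strand) for Psmb6, chr7:28050043-28050342 (minus strand) for Psmc4, chr13:14612992-14613291 (plus strand) for Psma2, chr13:34162714-34163013 (plus strand) for Psmg4 and chr11:97703184-97703483 (plus strand) for Psmb3.
Psmb6: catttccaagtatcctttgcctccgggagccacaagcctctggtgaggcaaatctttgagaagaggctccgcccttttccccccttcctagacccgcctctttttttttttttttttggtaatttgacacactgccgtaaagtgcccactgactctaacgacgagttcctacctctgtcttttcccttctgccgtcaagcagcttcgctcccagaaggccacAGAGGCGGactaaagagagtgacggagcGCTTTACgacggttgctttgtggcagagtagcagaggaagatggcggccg
Psmc4: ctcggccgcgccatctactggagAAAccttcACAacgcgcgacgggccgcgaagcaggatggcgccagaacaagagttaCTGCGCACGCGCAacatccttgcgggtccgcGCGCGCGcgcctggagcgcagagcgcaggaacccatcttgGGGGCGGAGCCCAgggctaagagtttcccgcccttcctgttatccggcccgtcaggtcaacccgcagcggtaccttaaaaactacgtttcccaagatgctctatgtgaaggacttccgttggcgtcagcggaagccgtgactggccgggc
Psma2: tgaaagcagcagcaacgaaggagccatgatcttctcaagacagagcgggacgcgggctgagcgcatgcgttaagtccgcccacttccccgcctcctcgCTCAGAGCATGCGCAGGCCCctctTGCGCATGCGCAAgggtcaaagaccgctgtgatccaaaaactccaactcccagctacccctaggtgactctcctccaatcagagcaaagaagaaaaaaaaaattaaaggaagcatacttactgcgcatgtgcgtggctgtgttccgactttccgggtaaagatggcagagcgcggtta
Psmg4: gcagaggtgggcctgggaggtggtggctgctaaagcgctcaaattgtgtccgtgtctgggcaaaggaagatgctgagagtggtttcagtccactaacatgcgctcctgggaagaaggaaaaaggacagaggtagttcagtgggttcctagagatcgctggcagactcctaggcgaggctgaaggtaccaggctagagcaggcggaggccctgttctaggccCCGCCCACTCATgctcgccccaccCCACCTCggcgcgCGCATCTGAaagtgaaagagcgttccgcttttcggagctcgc
Psmb3: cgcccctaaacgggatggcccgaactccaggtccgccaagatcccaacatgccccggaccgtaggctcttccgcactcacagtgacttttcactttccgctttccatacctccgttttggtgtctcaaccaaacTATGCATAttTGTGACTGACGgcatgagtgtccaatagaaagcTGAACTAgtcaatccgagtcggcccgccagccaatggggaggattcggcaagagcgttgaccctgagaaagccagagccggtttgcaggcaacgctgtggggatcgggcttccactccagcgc

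Nearly all proteasome promoters were open. Of 46 members, 43 were open in both libraries (93.5%, Wilson 95% interval 82.5 to 97.8, counting error only), against 40.9% of all 21827 genes. The same 43 members were open in replicate 2, where 50.5% of all genes were, and in replicate 3, where 40.9% were. In the permissive lists the members open in both libraries were again these 43, beside 45.5% of all genes. No member was open in 1 library alone, although 11019 genes were open in replicate 2 and 8924 in replicate 3. The 43 were all 7 alpha genes of the standard core, all 7 beta genes, all 6 ATPase genes, all 11 non-ATPase genes of the regulatory particle, all 7 assembly chaperone genes, 4 of 5 activator genes and Psmc3ip.

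**Figure D1:**
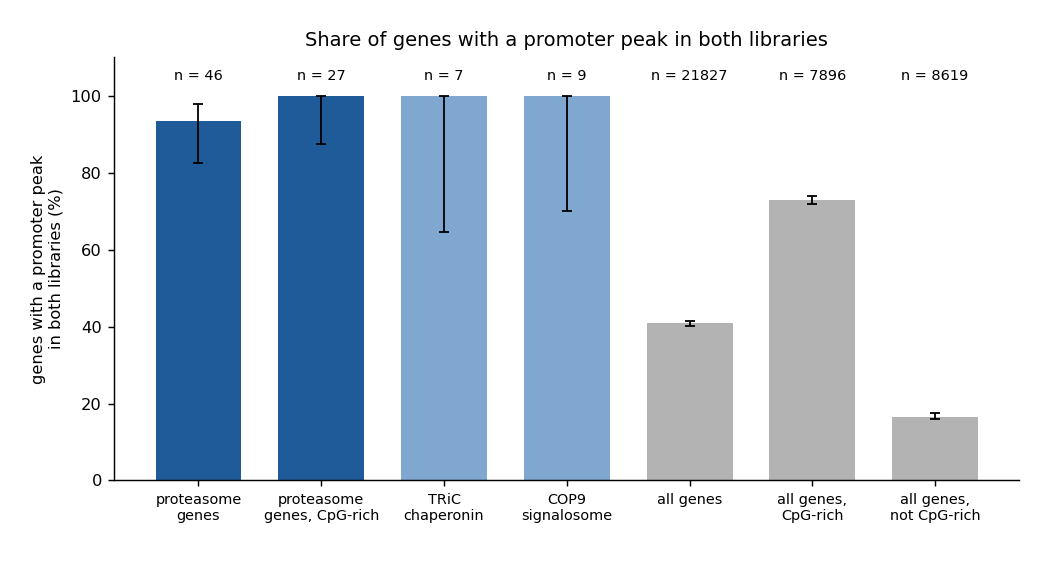
Share of genes (y axis, %) with a stricter promoter peak in both libraries for the proteasome genes and comparison sets (x axis), with the number of genes above each bar. Bars are shares and whiskers Wilson 95% intervals of the counts. The proteasome genes stood at 93.5%, all genes at 40.9% and all genes with a CpG-rich promoter at 72.9%.

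Base composition went with openness among all genes, so the members were also set beside genes of the same composition class. A promoter counted as CpG-rich when its RefSeq entry had an observed over expected CpG ratio of at least 0.6 and at least 50% G and C. All 27 CpG-rich members were open in both libraries, against 72.9% of the 7896 CpG-rich promoters of all genes. Of the 11 members whose entry was not CpG-rich, 9 were open in both, against 16.6% of 8619 such promoters. These 9 were Psma3, Psma6, Psmb4, Psmc1, Psmd4, Psmd9, Psmd10, Psme1 and Psme2. All but Psma6 and Psmc1 had ratios close under the cut-off, from 0.508 (Psmd4) to 0.589 (Psmd9). Psmc1 had a ratio of 0.966 and missed only by its 47.0% G and C. The 8619 promoters were not matched to these members within the class, so this contrast is not one of like composition. The median CpG ratio was 0.772 over the members with an entry and 0.602 over all genes with one. Composition was read from the main entry of a gene, which for Psma6 is not the start site that was open.

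The 3 members that were not open are those of restricted use or a gene copy. Psma8, which encodes the testis form of a core alpha subunit, had no peak in either list and 0 footprints in both libraries. Psmb11, the beta gene of the thymoproteasome of cortical thymic epithelium, likewise had no peak in the stricter or the permissive lists and 0 footprints. Psme2b, a copy of the activator gene Psme2, had none as well. The entry of Psmb11 had a CpG ratio of 0.165 and that of Psme2b one of 0.0904, so both lie among the promoters poor in CpG. The weakest open member, Psmb4, still had signals of 1.65 in replicate 2 and 1.22 in replicate 3.

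Although nearly all members were open, their signals were not high among open promoters. Over the 43 open members the median signal was 4.07 in replicate 2 (range 1.65 to 12.0) and 4.20 in replicate 3 (1.22 to 11.7). Over all 8917 genes open in both libraries the medians were 4.53 and 4.65. In replicate 2, 19 of the 43 members lay above the median of all open genes, and in replicate 3, 17 did. Signals are compared within a library, because their scaling is not stated.

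**Figure D2:**
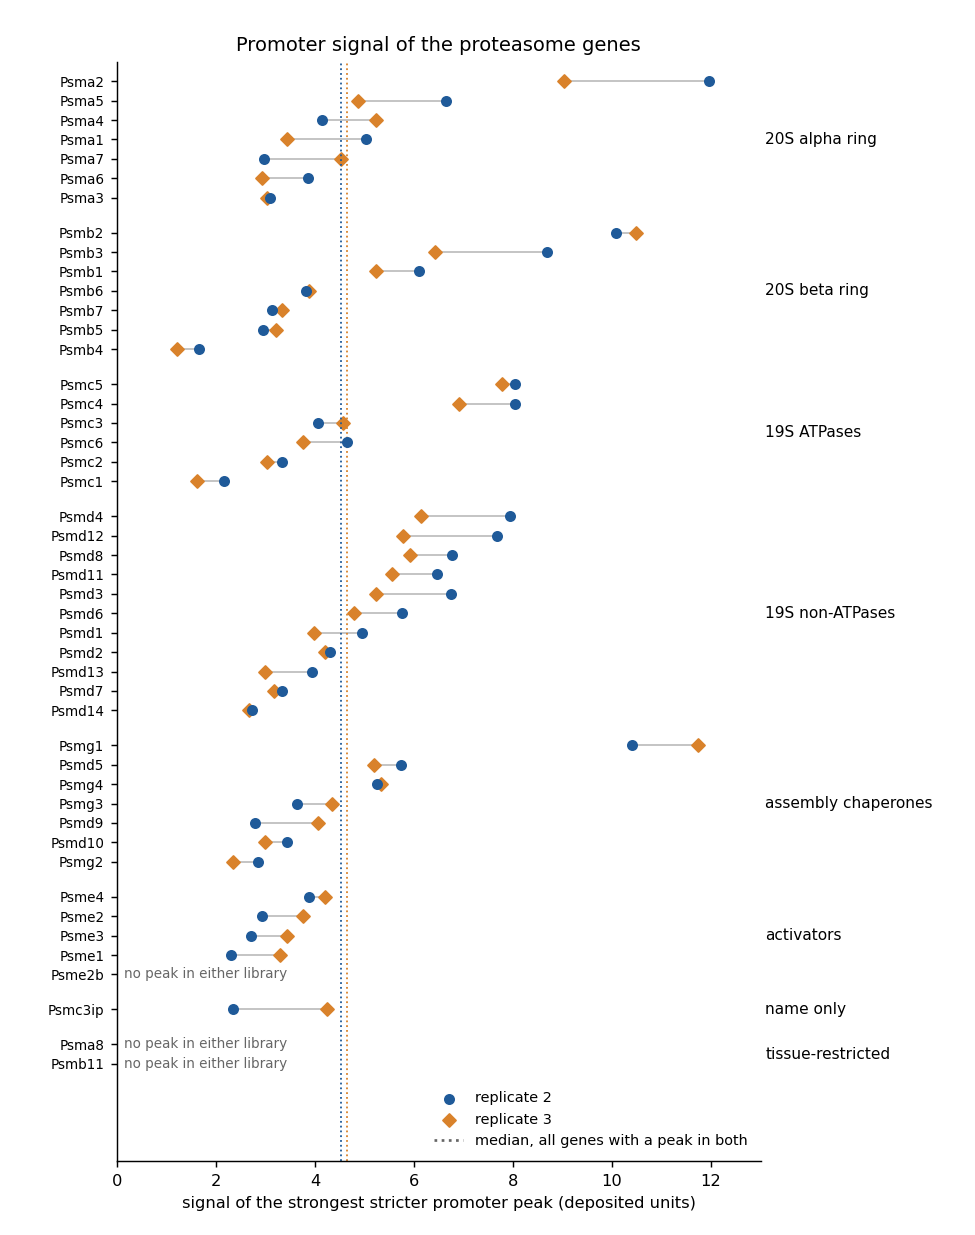
Signal of the strongest stricter promoter peak (x axis, deposited units) for each member (y axis, by role in the complex), with replicate 2 as circles, replicate 3 as diamonds and a line joining the libraries; dotted lines mark the medians of all genes open in both, 4.53 in replicate 2 and 4.65 in replicate 3. Psma2, Psmb2 and Psmg1 stand apart at the high end, Psmb4 and Psmc1 lie lowest, and Psme2b, Psma8 and Psmb11 have no peak.

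The alpha genes of the core covered most of the range. Psma2 had the highest signal of any member in replicate 2, 12.0, and 9.03 in replicate 3. Psma5 followed with 6.65 in replicate 2 and 4.88 in replicate 3. Psma4 had 4.13 in replicate 2 and 5.24 in replicate 3. Psma2 thus lay far above the rest of its ring in both libraries, whereas Psma4 and Psma5 changed order. Psma1 had 5.03 in replicate 2 and 3.43 in replicate 3. Psma7, next to the divergent gene Ss18l1, had 2.96 and 4.52. Psma6 had 3.85 and 2.94, and Psma3 had 3.09 and 3.03. These 4 genes were below the all-gene median of 4.65 in replicate 3.

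Among the beta genes, the standard catalytic ones were not the strong ones. Psmb5, which carries the chymotrypsin-like site, had 2.95 in replicate 2 and 3.21 in replicate 3. Psmb6, with the caspase-like site, had 3.82 and 3.88. Psmb7, with the trypsin-like site, had 3.14 and 3.34. The 3 catalytic genes therefore lay between the 27.1 and 39.7 percentile of open genes in replicate 2 and between the 27.4 and 38.0 percentile in replicate 3. The structural gene Psmb2 had 10.1 in replicate 2 and 10.5 in replicate 3. Psmb3 had 8.68 and 6.41 at its start site, and a further peak centred upstream, at -838.5 bp, with 6.34 and 4.92. Psmb1, which shares its promoter with Tbp, had 6.10 and 5.24. All 3 of these non-catalytic genes were above the medians of all open genes in both libraries, while the fourth, Psmb4, was the lowest of all open members in both.

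The immunoproteasome genes, which the rule leaves out, differed among themselves. Psmb9 reached 8.48 in replicate 2 and 7.90 in replicate 3, above every standard catalytic gene in both libraries. Psmb8 had 2.54 in replicate 2 and a peak only in the permissive list of replicate 3, with 2.57. Psmb10 had 0.806 in replicate 2 and 1.04 among the permissive peaks of replicate 3. By the stricter lists only Psmb9 of these 3 was open in both libraries, whereas the standard genes Psmb5, Psmb6 and Psmb7 all were. Neighbouring start sites are not given here for the 3 immunoproteasome genes, so their peaks may be shared with other genes.

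The ATPase genes of the regulatory particle formed a high pair and a low end. Psmc5 had 8.05 in replicate 2 and 7.77 in replicate 3. Psmc4 had 8.04 and 6.91. Psmc3 had 4.07 and 4.56, and Psmc6 had 4.64 and 3.75. These middle genes lay between the 43.4 and 51.3 percentile of open genes in replicate 2 and between the 36.0 and 48.8 percentile in replicate 3. Psmc2 had 3.34 and 3.03 in its promoter window. Psmc1 had 2.17 and 1.63, at the 14.9 percentile of open genes in replicate 2 and the 4.05 percentile in replicate 3. The 6 ATPases form 1 ring and are needed in equal number, but their promoter signals spanned 2.17 to 8.05 in replicate 2 and 1.63 to 7.77 in replicate 3.

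The 11 non-ATPase genes had the highest median of the roles with several members in replicate 2, 5.76, and 4.79 in replicate 3. Psmd4, a ubiquitin receptor, had 7.93 in replicate 2 and 6.14 in replicate 3, the highest of the 11 in both, although its entry was not CpG-rich. Psmd12 had 7.68 and 5.78, and Psmd8 had 6.76 and 5.92; both encode subunits of the lid, the part that positions and deubiquitinates substrates. The lid genes Psmd3, Psmd11 and Psmd6 had 6.75, 6.46 and 5.76 in replicate 2 and 5.24, 5.56 and 4.79 in replicate 3, also above the all-gene medians. The scaffold genes Psmd1 and Psmd2 lay near the middle, with 4.95 and 4.31 in replicate 2 and 3.97 and 4.20 in replicate 3. The lid genes Psmd13 and Psmd7 were lower, with 3.94 and 3.33 in replicate 2 and 2.98 and 3.16 in replicate 3. Psmd14, which encodes the deubiquitinase of the lid, was the lowest of the group in both libraries, with 2.73 in replicate 2 and 2.67 in replicate 3. The strongest peak of Psmd1 was not at its start site but upstream, centred at -268.5 bp in replicate 2 and -258.5 bp in replicate 3, with a weaker peak of 3.21 and 2.71 at the start site itself.

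Among the assembly chaperones, Psmg1 had 10.4 in replicate 2 and 11.7 in replicate 3, the highest member value in replicate 3. Its partner Psmg2, with which it forms a dimer that assembles the alpha ring, had 2.86 and 2.35. The genes of this dimer thus lay far apart, Psmg1 at the 94.2 and Psmg2 at the 25.5 percentile of open genes in replicate 2, and at the 98.3 and 12.9 percentile in replicate 3. Psmg3 and Psmg4, which form the other dimer, were closer together, with 3.64 and 5.26 in replicate 2 and 4.34 and 5.33 in replicate 3. The chaperones of the ATPase ring were Psmd5 with 5.74 and 5.19, Psmd9 with 2.78 and 4.07, and Psmd10 with 3.42 and 2.98, the first value of each being that of replicate 2. Only Psmd5 of these lay above the all-gene medians.

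The activator genes were low as a group, with a median of 2.82 over the 4 open ones in replicate 2 and 3.59 in replicate 3, and none above the all-gene median in either. Psme1, which encodes a subunit of the interferon-responsive activator, had 2.30 in replicate 2 and 3.30 in replicate 3. Psme3, which encodes the nuclear activator, had 2.70 and 3.43, and Psme4 had 3.88 and 4.20. Psme2, the partner of Psme1, had 2.93 and 3.75, but these peaks lay over the start site of its neighbour Rnf31, which encodes a ubiquitin ligase, centred at -479.5 bp from the start site of Psme2 in replicate 2 and at -545 bp in replicate 3. At its own start site Psme2 had a peak of 2.77 in replicate 2 (chr14:55590921-55591220), while in replicate 3 only the permissive list held one, with 2.12 (chr14:55590992-55591280). In a window of 250 bp before to 50 bp after the start sites, Psme2 was accordingly the 1 gene of the 43 that was no longer open in replicate 3. Psmc3ip, a recombination factor that matched the rule by name only, had 2.35 and 4.25.

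The order of the members was much alike in the 2 libraries. Across the 43 open members, Spearman's rho between the signals of replicates 2 and 3 was 0.845, and across all 8917 genes open in both it was 0.920; both describe promoters measured in the same libraries, which are not independent points. Psmg1, Psmb2 and Psma2 were in the top 10% of open genes in both libraries. Psmb4 was in the lowest 10% in both, at the 8.06 percentile in replicate 2 and the 1.13 percentile in replicate 3, and Psmc1 was so in replicate 3. These members kept their place at the ends of the order, while others moved. Psmc3ip, at the 17.5 percentile in replicate 2, gained 26.4 percentile points in replicate 3 over replicate 2, Psma7 gained 20.9 and Psmd9 gained 16.8. In the other direction Psma1 differed by -25.2 points, Psma5 by -20.2 and Psmd13 by -18.3. With 1 value a library, a difference in rank of this size cannot be set against a spread within libraries.

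**Figure D3:**
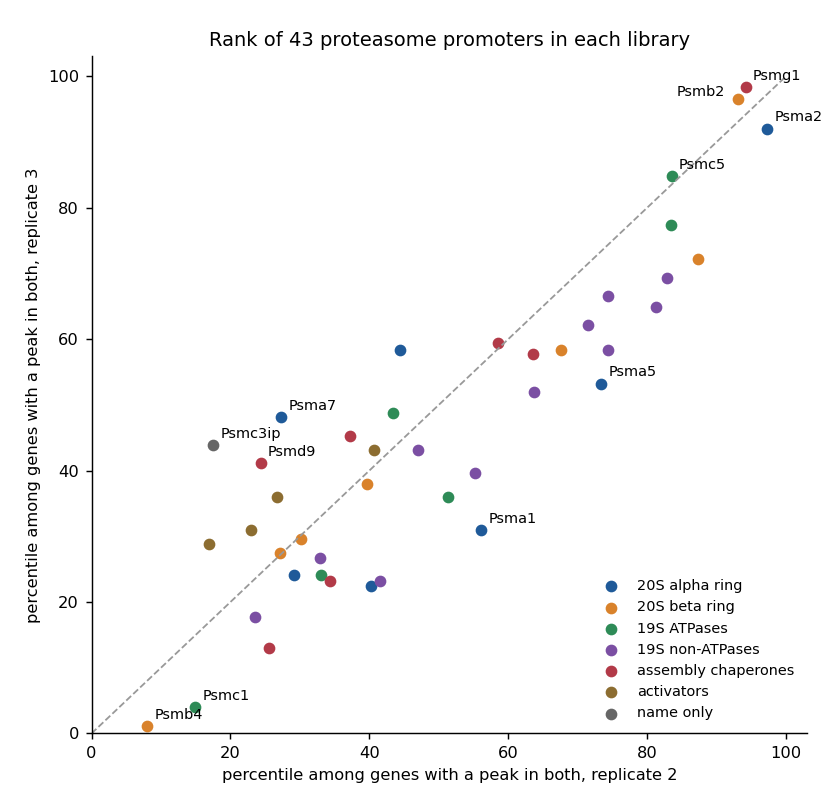
Percentile of each of the 43 open members among the 8917 genes open in both libraries, in replicate 2 (x axis) and replicate 3 (y axis), with colours for roles and a dashed line of equal rank. Psmg1, Psmb2 and Psma2 sit at the upper right, Psmb4 and Psmc1 at the lower left, and Psmc3ip and Psma1 lie farthest from the line on either side.

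The peaks of the members were narrow and lay on the start site. The strongest peak had a median width of 220 bp in both libraries, and its centre lay at a median of -19.5 bp from the gene's nearest start site in replicate 2 and -9.5 bp in replicate 3, negative values being upstream. For 41 of 43 members in each library it lay within 250 bp. In all 43 members the strongest peaks of the libraries overlapped each other. Within the promoter windows there were 61 stricter peaks in replicate 2 and 51 in replicate 3, with 16 members holding more than 1 peak in replicate 2 and 8 in replicate 3. Width, position, overlap and number of peaks were not computed for all open genes. These values therefore describe the members and are not shown to be particular to them.

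**Figure D4:**
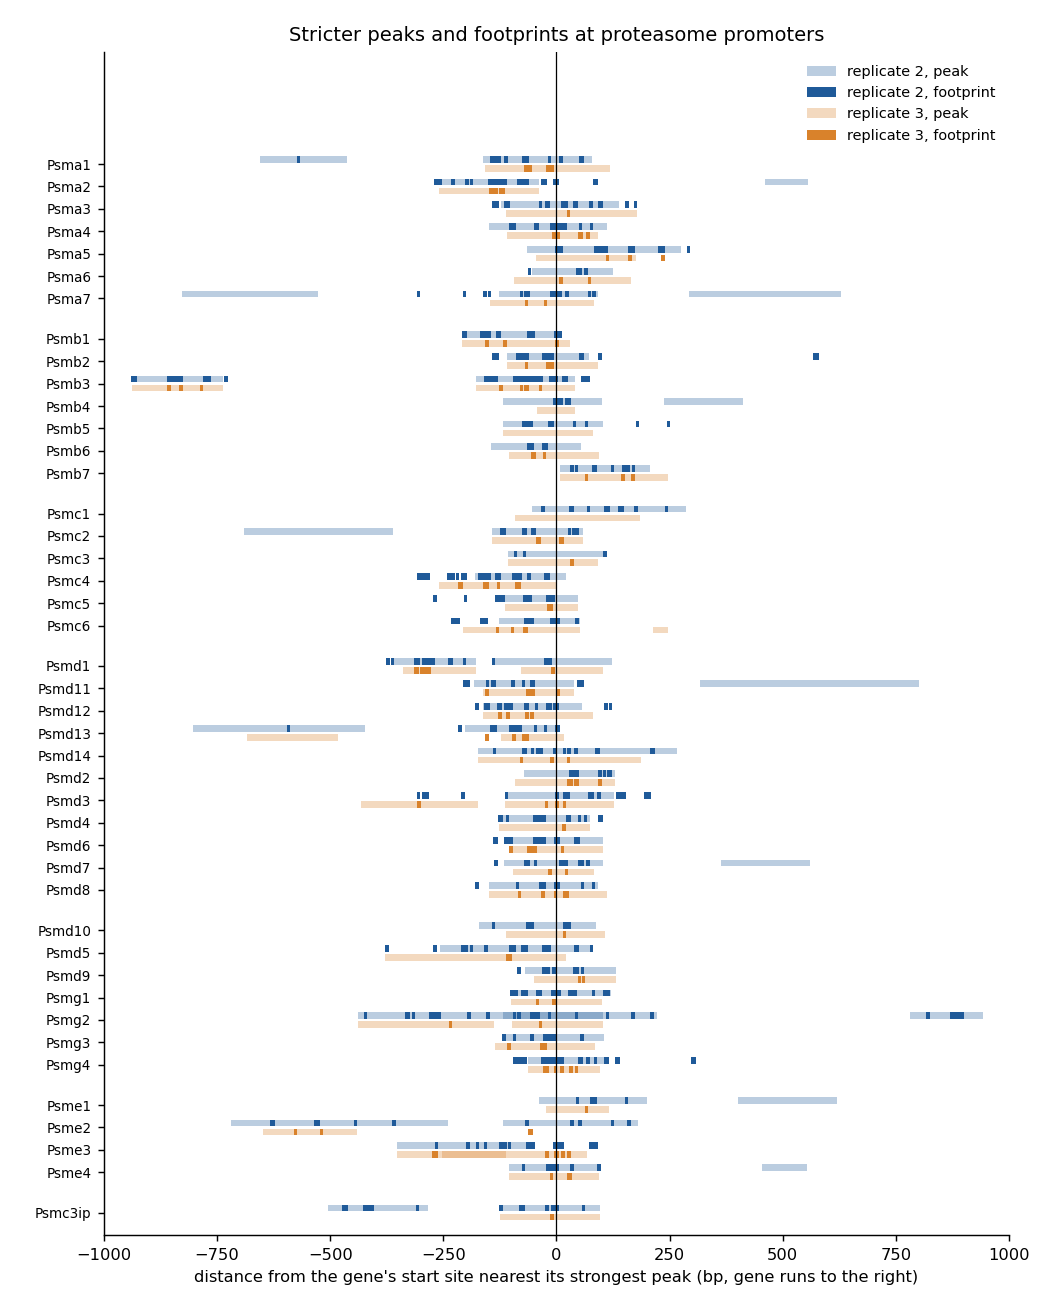
Stricter peaks (pale) and footprints (dark) of the 43 open members, drawn by distance in bp from the start site nearest the strongest peak (x axis), with replicate 2 above replicate 3 for each gene (y axis). Peaks gather on the start site; Psme2, Psmb3 and Psmd1 have peaks well upstream, and the other start sites of Psmb1 and Psma6 fall outside the drawn range.

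Several members share their promoter with another gene. For 9 of 46 members (19.6%) the start site of a protein-coding gene on the other strand lay at most 1 kb upstream, against 8.99% of all genes. The gaps ran from 32 bp between Psmc2 and Dnajc2, a ribosome-associated chaperone gene, to 607 bp between Psme2 and Rnf31, with a median of 99 bp. The other pairs were Psma2 with the mitochondrial ribosomal gene Mrpl32 (75 bp), Psma7 with Ss18l1 (76 bp), Psmb1 with Tbp, the gene of the TATA-binding protein (137 bp), Psmc5 with Ftsj3 (75 bp), Psmd10 with the autophagy protease gene Atg4a (179 bp), Psmd13 with the mitochondrial deacetylase gene Sirt3 (99 bp) and Psmg2 with Cep76 (263 bp). All 9 were open in both libraries, but so were 86.9% of all 1962 genes with such a neighbour. In 7 of the 9, all but Psma7 and Psmd10, the centre of the strongest peak of replicate 2 lay nearer to the neighbour's start site. In replicate 3 this was so for 4, namely Psma2, Psmb1, Psmc2 and Psme2, whose signals cannot be credited to the member alone in either library. Among these is Psma2, the highest member of replicate 2, whose peak (chr13:14612981-14613200) was centred at -149.5 bp from its own start site in both libraries. The strongest peaks of Psmc5 and Psma7 reached over both start sites of the pair in both libraries, so their signals may be shared as well.

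Some members have start sites or open sites far apart. Psma6 has annotated start sites at positions 55384222 and 55398775 of chromosome 12. The first had no peak and 0 footprints in either library, and its RefSeq entry had a CpG ratio of 0.185. At the second lay the only promoter peaks, with 3.85 in replicate 2 and 2.94 in replicate 3, in an entry with a ratio of 0.697 and 65.0% G and C. Psmb1 was open at both of its clusters on chromosome 17: the start site at 15499751 had 6.10 and 5.24, and those at 15498298 and 15498339 shared a peak of 4.05 and 4.38. Psmc2 had a stronger peak inside the gene than at the promoter it shares with Dnajc2: 6.02 in replicate 2 (chr5:21786621-21786820) and 6.73 in replicate 3 (chr5:21786641-21786820), against 3.34 and 3.03. GENCODE lists no protein-coding start site of Psmc2 there, whereas RefSeq places one at position 21786747, within the peak. The 3.34 and 3.03 above thus understate the strongest open site of this gene. Peaks in the body outside all promoter windows were found in both libraries for 3 other members as well, with 2.11 in replicate 2 and 3.25 in replicate 3 for Psma2, 1.01 and 1.45 for Psma6, and 1.40 and 2.03 for Psmd9. A further peak within the annotated span of Psmd9, with 3.91 and 3.97 (chr5:123171661-123171860 in replicate 2), lay far upstream of its protein-coding start site.

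Footprints were found in the promoters of 40 of 46 members in both libraries, against 38.3% of all genes. The 6 others were the 3 genes without a peak and Psmb4, Psmb5 and Psmc1, which had 2, 7 and 7 footprints in replicate 2 and 0 in replicate 3. The contrast with all genes is much like that of openness. Footprints in both libraries were found for 8351 of all genes, where 8917 were open in both, and for 40 members, where 43 were open. Member promoters held 299 footprints in replicate 2 and 106 in replicate 3. Of those of replicate 3, 76 (71.7%) overlapped one of replicate 2, and of those of replicate 2, 69 (23.1%) overlapped one of replicate 3. The same overlap was not computed for all genes, so these shares are not shown to be particular to the members. The median open member had 7 in replicate 2 and 2 in replicate 3, and the median open gene 7 and 3; the part of depth in this difference was not tested. Per 100 bp of peak the members had a median of 1.90 in replicate 2 and 0.909 in replicate 3, and all open genes 1.54 and 0.877. Psmg2 had the most in replicate 2, 16, spread over 3 peaks, followed by Psma3 with 11. Psmb3 had the most in replicate 3, 7, divided between its start site and the peak upstream. Of all member footprints, 87.0% in replicate 2 and 89.6% in replicate 3 lay within 250 bp of the start site, and their median width was 10 bp and 9 bp. Neither position nor width of footprints was computed for all open genes.

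The RefSeq entries of 300 bases were searched on both strands for 11 consensus motifs, in the 36 open members that have one, and each match was set against the footprints. The ETS letters CCGGAAG, the core bound by ETS-family factors, were found in a larger share of members than of other promoters. This lead over open promoters was the largest among the 11 motifs searched. No interval was computed for it, and whether it exceeds the counting error of so few members was not tested. The letters were in 14 members (38.9%), against 23.3% of the 7191 open promoters, 25.5% of the open CpG-rich ones and 12.5% of all 16515. These members were Psmc1, Psmc2, Psmc3ip, Psmc6, Psmd2, Psmd4, Psmd6, Psmd11, Psmd12, Psmd13, Psme3, Psme4, Psmg1 and Psmg3. When the entry under the peak was searched instead, a choice made after seeing the data, Psma6 was added and the count was 15. Of the 17 matches in the 14 members, a footprint of replicate 2 overlapped 11 (64.7%) and one of replicate 3 overlapped 4 (23.5%). In the other open promoters the shares were 57.5% and 18.4%. The 4 matches with a footprint in replicate 3, in Psmc3ip, Psmc6, Psmd13 and Psme3, also had one in replicate 2.

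The GC box GGGCGG, read by SP and KLF factors, was the commonest match, in 22 of the 36 members (61.1%), against 70.2% of open promoters, 77.1% of the open CpG-rich ones and 48.5% of all promoters. Its 44 matches were overlapped by a footprint in 31 cases in replicate 2 (70.5%) and in 12 in replicate 3 (27.3%), where other open promoters had 54.3% and 20.7%. Psmc4 shows a match within a footprint of both libraries in the printed sequence, in the capitals at -96.5 bp from the start site. CCAAT was found in 13 members (36.1%), against 40.7% of open promoters. Among them was Psma6, whose searched entry had no peak. With the entries under the peaks, a choice made after seeing the data, the count was 12. Footprints overlapped 5 of the 24 CCAAT matches in replicate 2 (20.8%), among them 2 at Psmb3, and 2 in replicate 3 (8.33%). In the other open promoters the shares were 24.5% and 9.79%. The NRF1 letters CGCATGCG occurred in Psma2, with 2 matches, and in Psmg1, 5.56% against 5.38%. The match of Psma2 centred at -122.5 bp stands in the capitals of its printed sequence, under footprints of both libraries. It lies beyond the nearest start site of Mrpl32, which is 75 bp upstream of that of Psma2. The match can therefore not be credited to Psma2 alone. Of the 3 NRF1 matches, a footprint overlapped 3 in replicate 2 and 1 in replicate 3. In the other open promoters, 92.6% and 59.1% of matches had one. Psma2 and Psmg1 are both among the 3 members of highest rank, but the third, Psmb2, had no entry to search. Whether these letters go with signal was not tested.

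The antioxidant response element TGACNNNGC is the site of NFE2L1 and NFE2L2, and NFE2L1 is known to raise the expression of proteasome genes when proteasome activity is short. It was found in 6 of the 36 members (16.7%), against 15.4% of open promoters and 13.3% of all promoters, which is a share near the background. The 6 were Psmb5, Psmb6, Psmc6, Psmd9, Psmd12 and Psme4. A footprint of replicate 2 overlapped 3 of the 6 matches, those of Psmb5, Psmb6 and Psmd9, and no footprint of replicate 3 overlapped any. In the other open promoters, footprints overlapped 39.2% of 1232 matches in replicate 2 and 17.9% in replicate 3. With 6 matches in members, these shares cannot be told apart. In Psmb5 the letters also hold the cyclic AMP response core TGACGT, so that 1 footprint covers both matches, and the RUNX letters TGTGGTT farther upstream touch a footprint of replicate 2 at their edge. The TATA letters TATAAA were in 3 members (Psmb4, Psmd1 and Psmd6), 8.33% against 5.72% of open promoters. The other letters were TGACGT in 4 members (11.1%, against 14.3%), the E-box CACGTG in 3 (8.33%, against 11.1%), AAGATGGCG of YY1 in 2 (5.56%, against 4.28%), ACTACAA of THAP11 and ZNF143 in 2 (5.56%, against 4.94%) and TGTGGTT of RUNX in 1 (2.78%, against 3.18%). Over all bases, footprints covered 20.2% of the members' entries in replicate 2 and 6.22% in replicate 3, and 19.1% and 6.45% of the other open promoters.

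**Figure D5:**
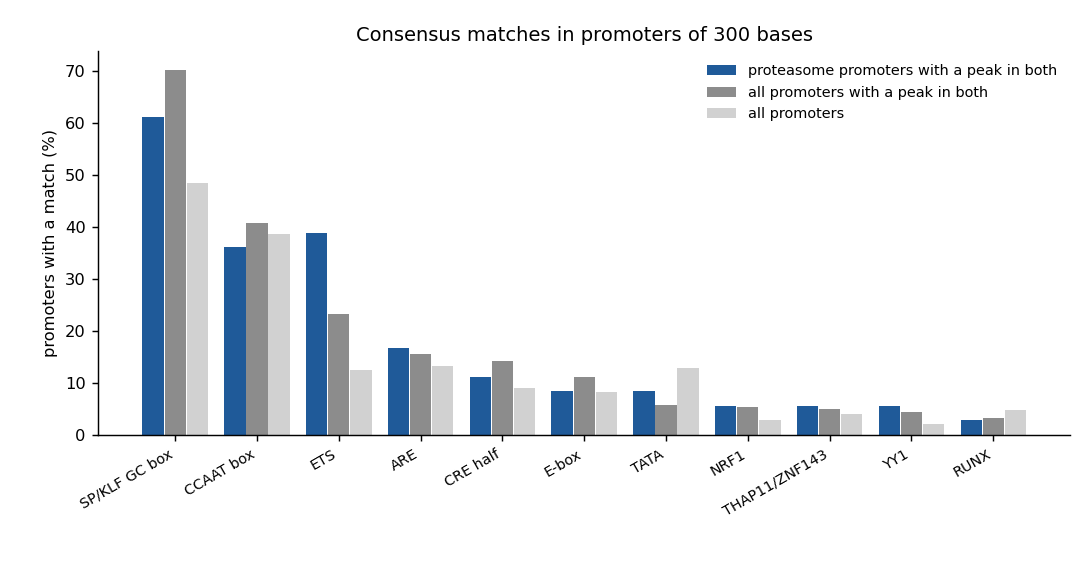
Share of promoters of 300 bases (y axis, %) that hold each consensus on either strand (x axis), for the 36 open proteasome genes, the 7191 genes open in both libraries and all 16515. The main entry of a gene was searched, which for Psma6 is not the open start site. ETS letters stood at 38.9% of the proteasome promoters and 23.3% of open promoters; the antioxidant response element (ARE) stood at 16.7% and 15.4%.

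Of further proteasome genes, all 10 found in the annotation were open in both libraries, with a median signal of 5.61 in replicate 2 and 5.69 in replicate 3. They included Pomp, the maturation factor of the core (2.28 and 2.98), Adrm1, a ubiquitin receptor (9.18 and 8.54), and the deubiquitinase genes Uchl5 (9.01 and 9.80) and Usp14 (2.98 and 4.20). All 6 regulators of proteasome genes were open, among them Nfe2l1 with 7.32 and 5.83 and Nfe2l2 with 3.39 and 3.07. Of other large complexes, the 7 genes of the TRiC chaperonin analysed here and the 9 of the COP9 signalosome were all open in both libraries. Their median signals were 7.65 and 5.44 in replicate 2 and 5.60 and 4.61 in replicate 3, each above that of the proteasome members in the same library.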

How the data were processed

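The data were 2 DNase-seq libraries of 1 group. Per the notes deposited with each library, the files are on mm10 and were made from that library's own alignments, not pooled. Alignment and calling tools were not given in the sources used here. Peak lists hold a signal per peak from the authors, whose scaling is not stated. The authors' deposited q-values (false discovery rate of the cut rate per stretch) reach 0.05; the deposited footprint lists hold a constant, so only their intervals were used. The depth is not stated.

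Genes and start sites came from the GENCODE M21 basic annotation, without mitochondrial genes. Promoter peaks, signals, footprints and base composition were computed for all genes. Motif matches overlapped a footprint by 1 bp or more. All 41 RefSeq entries of members equalled the reference genome at their coordinates. No significance test was run, as the design has 1 group. Intervals are Wilson 95%. The overlap step was tested on simulated data, where 20 of 20 planted genes were recovered.

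The members and lists were chosen with earlier results of these data known. Named were all members without a peak, the highest and lowest of each role, the catalytic beta genes and the excluded genes, the 3 largest and smallest rank differences, and the members with most footprints; the remaining open members are also given. Psme2's own start site, the body peak of Psmc2 and the start sites of Psma6 and Psmb1 were singled out after their values were seen. Of the listed comparison genes, those without a match in the annotation were not analysed here. Alternatives changed the list, window, start sites, overlap, number of peaks, threshold and libraries. Computation used pandas 2.3.3 with numpy 2.4.6 in Python 3.11.15, pysam 0.24.0, scipy 1.17.1 and, for figures, matplotlib 3.10.9.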

Additional observations from a re-analysis of the deposited data

How the results depend on the processing

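The count of open members was 43 in both libraries with the permissive lists, a window of 500 bp either side, 1 principal start site per gene, peak midpoints, or equal numbers of peaks. It was 42 in a window of 250 bp before to 50 bp after a start site, where Psme2 was missing in replicate 3. Among peaks at or above a library's median signal it was 34 in both, from 43 in replicate 2 and 34 in replicate 3. That threshold was 1.26 in replicate 2 and 3.07 in replicate 3. For the alternative windows, start sites, midpoints, peak numbers and threshold, only members were counted. No share of all genes stands beside those counts, so how far the members' lead holds there is not known. Leaving out 1 library gave 43 in each case for open members, 40 to 43 for members with a footprint, 4.07 to 4.20 for the median signal and 2 to 7 for the median number of footprints, whose mean over the libraries was 4.5 ± 3.54 (SD, n = 2). Without the 7 members whose strongest peak of replicate 2 lay nearer another start site (4 in replicate 3), a choice made after seeing the data, the median signal was 4.16. This left 36 open members by subtraction alone, so that count is no check on openness. Taking the sum over a promoter's peaks gave a median signal, averaged over the libraries on the deposited scale, of 4.60 in place of 4.13, since it adds peaks, and on the scale of percentiles within a library's list it was 75.7. Searching the strongest peak of replicate 2 in place of the RefSeq window gave the TATA letters in 1 member, against 3, ETS letters in 17, against 14 (15 in the RefSeq entry under the peak), and the antioxidant response element in 5, against 6; the cause was not tested. No paired analysis was possible because there is 1 group and no contrast. Depth, the single group and 1 shared donor label limit all results: footprints absent from replicate 3 may have been missed, and no spread between animals was measured.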

Other observations

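Genes of shuttle proteins, which carry ubiquitin-tagged proteins to the proteasome, covered a wide range of promoter signals. Rad23b, which encodes a shuttle that also acts in DNA repair, reached 16.8 in replicate 2 and 14.4 in replicate 3, above every proteasome member in both. Ubqln1 had 2.73 and 2.71, and Ubqln4 had 3.00 and 4.25. Ubqln2 had 1.05 in replicate 2 and only a permissive peak of 1.36 in replicate 3, and Ddi1 had no peak in either list of either library. Among the regulators, Vcp, the segregase that extracts proteins for degradation, had 8.26 and 7.45, while Ngly1, the glycanase that processes NFE2L1, had 1.81 in replicate 2 and 3.57 in replicate 3, at the 10.1 and 32.9 percentile of open genes.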
